A study of Mus musculus with 3143 samples.

Results

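The 10 genes of glucose uptake and glycolysis described here were followed across the cell types of the mouse kidney glomerulus and between mice labelled IgAN and Control: the transporter Slc2a1, the hexokinases Hk1 and Hk2, the phosphofructokinases Pfkl and Pfkp, and the enzymes Aldoa, Gapdh, Pgk1, Pkm and Ldha. They were taken by symbol from the read count table, and all 10 were among its 46517 gene names. The cells came from the glomerular fraction of kidneys of adult C57BL/6 mice. The IgAN mice, named for IgA nephropathy, in which deposits of IgA form in the glomerular mesangium, contributed 1798 cells (plates 313, 315, 316, 318, 322 and 325). The Control mice contributed 1345 cells (plates 314, 317, 321 and 326). How IgAN was brought about, and what the Control mice received, is not given in the sources used here, and no other allele or agent is named for either group. The tissue was dissociated with enzymes in both groups, and dye-positive viable cells were sorted into plates and read by Smart-seq2, a full-length method without molecular identifiers.

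Glucose enters most cells through facilitative transporters, of which the Slc2a1 product is the widely used basal one, and hexokinases trap it as glucose 6-phosphate. Phosphofructokinase commits the sugar to glycolysis, aldolase splits it, Gapdh and Pgk1 carry the first steps that conserve energy, pyruvate kinase makes pyruvate, and lactate dehydrogenase turns pyruvate into lactate. Most steps have several isozymes with different tissue use. In the kidney, the proximal tubule is known for making glucose and burning fatty acids, whereas more distal segments use glucose, and podocytes are known to make use of glycolysis. Many of these genes are also known targets of the hypoxia-inducible factors, transcription factors that are stabilised when oxygen is low.

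The table held 816735155 reads in genes, and single cells held between 50365 and 1135415 of them. The median was 231222 reads for IgAN cells and 241543 for Control cells. Median depth ran from 177508 reads per cell on plate 325 to 396718 on plate 322. Cells fell into 25 clusters, built without the 10 genes and the pathway lists other than the immediate early and cell cycle ones, and 11 classes were named from markers with the ending "like", because they rest on RNA alone. The classes held 40 IgAN and 146 Control podocyte-like cells, 109 IgAN and 51 Control mesangial-like cells, and 1029 IgAN and 619 Control endothelial-like cells. There were 116 IgAN and 85 Control proximal tubule-like cells, 182 IgAN and 99 Control macrophage or dendritic-like cells, and 92 IgAN and 128 Control T or NK cell-like cells. In podocyte-, mesangial-, endothelial- and proximal tubule-like and T or NK cell-like cells, 8 of 8 markers were found in at least 25% of cells. In macrophage or dendritic-like cells 6 of 8 were, and C1qa and C1qb lay below that share. In loop, distal tubule or collecting duct-like cells 4 of 8 were, and the collecting duct markers Aqp2, Hsd11b2, Fxyd4 and Atp6v1g3 lay below that share. These cells are called loop and distal tubule-like for short. Markers of another class were also carried by 60 of the 120 loop and distal tubule-like cells. The same held for 26 of the 32 smooth muscle or renin cell-like and 11 of the 20 neutrophil-like cells. Among podocyte-like cells it held for 35 of 186, and among endothelial-like cells for 20 of 1648. The part of such cells in the loop and distal tubule-like, smooth muscle or renin cell-like and neutrophil-like levels was not tested. Of the 281 macrophage or dendritic-like cells, 164 lay in a cluster led by Treml4, Cd300e and Adgre4. Monocytes had no class of their own, so this class does not tell them apart from macrophages or dendritic cells. The share of the gene model Gm13340 in its reads plus those of mt-Co1 set the groups apart, with a median of 56.8% in IgAN cells and 0% in Control cells, but 22 cells of Control plate 317, 18 of IgAN plate 318 and 1 of IgAN plate 322 lay on the other group's side of 30%. None of these 41 cells was podocyte-like, and leaving them out changed none of the calls below.

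Since no label ties a cell to an animal, the IgAN cells count as 1 sample and the Control cells as 1 sample, and no test between the groups was possible. Each plate held cells of 1 group only. Differences due to plate and to group therefore cannot be told apart, and values are set against the spread between plates. Levels are reads summed over the cells of a class and scaled to counts per 1e6 reads (CPM), and "found" means at least 1 read in a cell. Levels of different genes are compared only per kilobase (kb) of transcript. Reads of near-identical copies can be split by the counting. The table held 143 other genes with Gapdh-like sequence, and 137 of them, annotated as pseudogenes, had 24.9% of the reads of Gapdh plus these pseudogenes, whereas copies of the other members took at most 0.119%. Slc2a1 and Hk1 overlap antisense genes, and Pfkp and Gapdh overlap the coding genes Pitrm1 and Iffo1 on the other strand, and since the strand setting is not given, reads of these pairs could be mixed.

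As examples of the letters that lie before these genes, and because several of them are known targets of hypoxia-inducible factors, the 250 bases upstream of the RefSeq start of 4 members are printed 5′ to 3′ (GRCm38.p6), with capitals marking the letters ACGTG or GCGTG, the core of the element that hypoxia-inducible factors bind, on either strand, with overlapping matches joined.
Slc2a1 (chr4:119108495-119108744, plus strand): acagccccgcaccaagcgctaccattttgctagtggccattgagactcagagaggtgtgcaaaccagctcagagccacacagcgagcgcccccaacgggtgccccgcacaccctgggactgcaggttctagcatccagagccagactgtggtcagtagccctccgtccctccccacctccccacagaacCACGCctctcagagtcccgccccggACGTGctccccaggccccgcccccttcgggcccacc
Hk2 (chr6:82774455-82774704, minus strand): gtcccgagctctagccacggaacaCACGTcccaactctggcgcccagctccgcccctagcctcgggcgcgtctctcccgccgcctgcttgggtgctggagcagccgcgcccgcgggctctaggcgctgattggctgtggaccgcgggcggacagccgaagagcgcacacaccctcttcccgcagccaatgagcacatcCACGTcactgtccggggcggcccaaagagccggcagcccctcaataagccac
Pgk1 (chrX:106186850-106187099, plus strand): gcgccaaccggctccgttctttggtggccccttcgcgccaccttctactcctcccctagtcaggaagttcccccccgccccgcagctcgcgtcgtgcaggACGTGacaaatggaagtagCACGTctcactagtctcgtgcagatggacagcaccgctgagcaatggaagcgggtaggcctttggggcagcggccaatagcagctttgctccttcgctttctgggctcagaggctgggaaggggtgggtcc
Ldha (chr7:46845554-46845803, plus strand): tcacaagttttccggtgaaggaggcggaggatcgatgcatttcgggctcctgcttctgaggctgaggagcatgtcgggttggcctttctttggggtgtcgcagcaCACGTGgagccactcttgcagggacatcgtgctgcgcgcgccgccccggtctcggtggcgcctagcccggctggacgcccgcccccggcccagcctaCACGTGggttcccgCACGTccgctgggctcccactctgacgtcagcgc
The start site of the Slc2a1 window lies just inside the gene model of the other annotation used here (chr4:119108711-119137983), and the Ldha window lies within its longest gene span (chr7:46841475-46855627), where this annotation also holds transcripts that begin further upstream. Of 15 such windows over the 10 genes, 12 held at least 1 of these matches, and 38.6% of all 32851 windows did. The windows of the 10 genes had a median GC content of 62.8%, against 52.4% for all windows, and both sets of letters contain a CpG. A match is a description of the letters and not a binding site.

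Summed over the 10 genes, loop and distal tubule-like cells had the highest level, 5655 CPM over both groups, and B or plasma cell-like and endothelial-like cells the lowest, 1693 and 1764 CPM. Proximal tubule-like cells had 3159 CPM, T or NK cell-like cells 3017 CPM, macrophage or dendritic-like cells 2557 CPM, mesangial-like cells 2320 CPM and podocyte-like cells 2072 CPM. Podocyte-like cells stood 0.23 above endothelial-like cells on the log2 scale, and did so on each of 6 plates with at least 10 cells of both classes, by 0.03 to 0.46. Mesangial-like cells stood 0.39 above endothelial-like cells, on 7 of 8 plates, with a range of -0.37 to 0.70. The sums are led by the abundant members Aldoa, Ldha and Pkm.

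**Figure D1:**
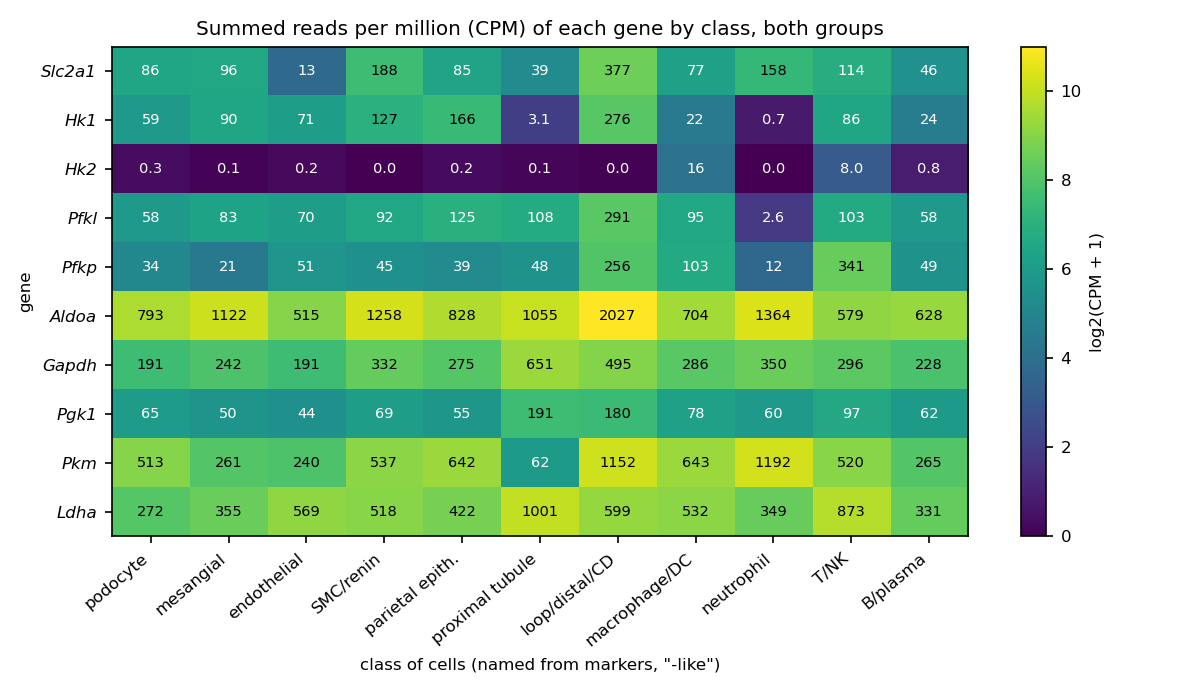
Heat map of the 10 genes (rows) in the 11 classes (columns), over IgAN and Control together; each box prints the level in CPM, its colour gives log2(CPM + 1), and loop/distal/CD marks the loop and distal tubule-like class. Slc2a1 is lowest in endothelial-like cells at 12.9 CPM and highest in loop and distal tubule-like cells at 377 CPM, while Hk2 is near 0 outside the macrophage or dendritic-like and T or NK cell-like classes.

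Slc2a1, the basal glucose transporter, was lowest in endothelial-like cells of all 11 classes. It had 86.1 CPM in podocyte-like cells and 96.2 CPM in mesangial-like cells, against 12.9 CPM in endothelial-like cells. That is 6.66-fold higher in podocyte-like cells, on 6 of 6 shared plates, and 7.44-fold higher in mesangial-like cells, on 8 of 8. T or NK cell-like cells had 114 CPM, above endothelial-like cells on 10 of 10 plates, and loop and distal tubule-like cells 377 CPM, above them on 5 of 5. Smooth muscle or renin cell-like and neutrophil-like cells had 188 and 158 CPM, but no plate held 10 of either. The middle of this order was not resolved: podocyte-like, mesangial-like, parietal epithelial-like and macrophage or dendritic-like cells, from 76.8 to 96.2 CPM, changed places from plate to plate. Proximal tubule-like cells had 38.6 CPM and lay above endothelial-like cells on 4 of 7 plates only. At 50000 reads per cell, Slc2a1 was found in 24.7% of podocyte-like cells, 27.5% of mesangial-like cells and 7.22% of endothelial-like cells. Without thinning these shares were 40.3%, 36.9% and 21.7%, at unequal depth.

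**Figure D2:**
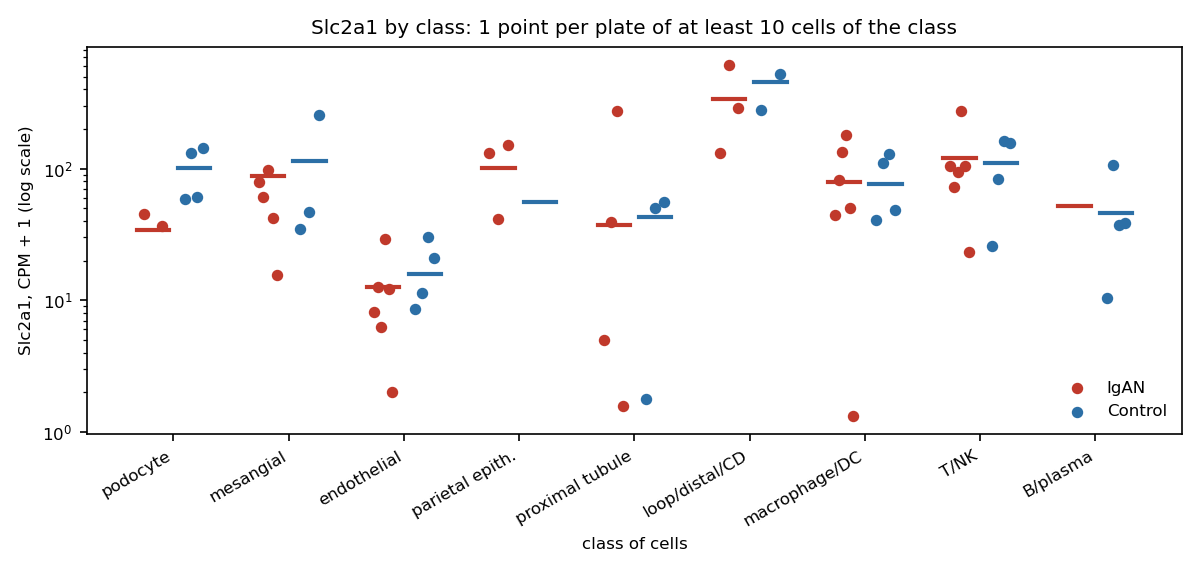
Slc2a1 level on each plate with at least 10 cells of a class (points, CPM + 1 on a log axis), with a line for all cells of a group, and IgAN left of Control within each class. Endothelial-like plates lie between 0.999 and 29.3 CPM, and the podocyte-like plates between 35.9 and 143 CPM.

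Slc2a1 was not the main transporter everywhere when levels were set per kb and shared out within the family. It made up 43.0% of the transporter RNA per kb of podocyte-like cells, where Slc2a12, a facilitative transporter of muscle and fat, made up 28.9%. In mesangial-like cells Slc2a1 made up 41.1% and the intracellular transporter Slc2a8 33.8%. In endothelial-like cells Slc2a1 held 10.8% and Slc2a8 49.2%, the second with 31.5% to 64.8% by plate. In neutrophil-like cells 70.1% belonged to Slc2a3, the high-affinity transporter of neurons and white blood cells. In smooth muscle or renin cell-like cells 52.1% belonged to Slc2a4, the insulin-responsive one. Markers of another class were also carried by 11 of the 20 neutrophil-like and 26 of the 32 smooth muscle or renin cell-like cells. In proximal tubule-like cells 73.3% belonged to Slc5a2, the sodium-coupled transporter that recovers filtered glucose, which is also 1 of the markers that name that class.

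Among the hexokinases, Hk1, the form bound to mitochondria in most tissues, was nearly the sole one in mesangial-like and endothelial-like cells. It took at least 99.3% of the RNA per kb of Hk1, Hk2, Hk3 and Hkdc1 on each mesangial-like plate and at least 98.4% on each endothelial-like plate. Its level was 89.5 CPM in mesangial-like cells and 58.9 CPM in podocyte-like cells, against 70.7 CPM in endothelial-like cells, and podocyte-like cells lay below endothelial-like cells on 6 of 6 plates. Proximal tubule-like cells had 3.05 CPM, 23.2-fold below endothelial-like cells and below them on 7 of 7 plates.

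Hk2, the inducible hexokinase, was highest in 2 of the white blood cell classes and near 0 in the others, the neutrophil-like and B or plasma cell-like ones. It had 16.1 CPM in macrophage or dendritic-like cells (95% Poisson interval 15.2 to 17.1) and 7.96 CPM in T or NK cell-like cells (7.20 to 8.77), and under 1 CPM in every other class, with 0.231 CPM in endothelial-like cells. These intervals cover counting error only. It was found in 18.1% of macrophage or dendritic-like cells and 10.0% of T or NK cell-like cells, against 1.21% of endothelial-like cells. In T or NK cell-like cells 1 cell gave 34.1% of the Hk2 reads. Hk3, the hexokinase of granulocytes, outweighed it where it was found: Hk3 held 72.6%, Hk1 17.6% and Hk2 9.79% of the RNA per kb of the same 4 genes in macrophage or dendritic-like cells, and in neutrophil-like cells Hk3 held 99.7%.

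The isozymes of phosphofructokinase differed between the classes. Pfkl, the liver form, ran from 57.9 to 125 CPM in 9 of the 11 classes, with 291 CPM in loop and distal tubule-like cells and 2.56 CPM in neutrophil-like cells. Pfkp, the platelet form, had 341 CPM in T or NK cell-like cells, against 51.5 CPM in endothelial-like cells, a 6.62-fold difference seen on 9 of 10 plates. The exception was IgAN plate 325, where 12 T or NK cell-like cells had 2.62 CPM. Mesangial-like cells had 20.9 CPM of Pfkp and used mainly Pfkm, the muscle form, which made up 66.0% of their phosphofructokinase RNA per kb, with 48.2% to 92.0% by plate. In T or NK cell-like cells Pfkp made up 72.0%. In podocyte-like cells no form held a majority, with Pfkm at 31.5% and Pfkp at 23.6%.

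**Figure D3:**
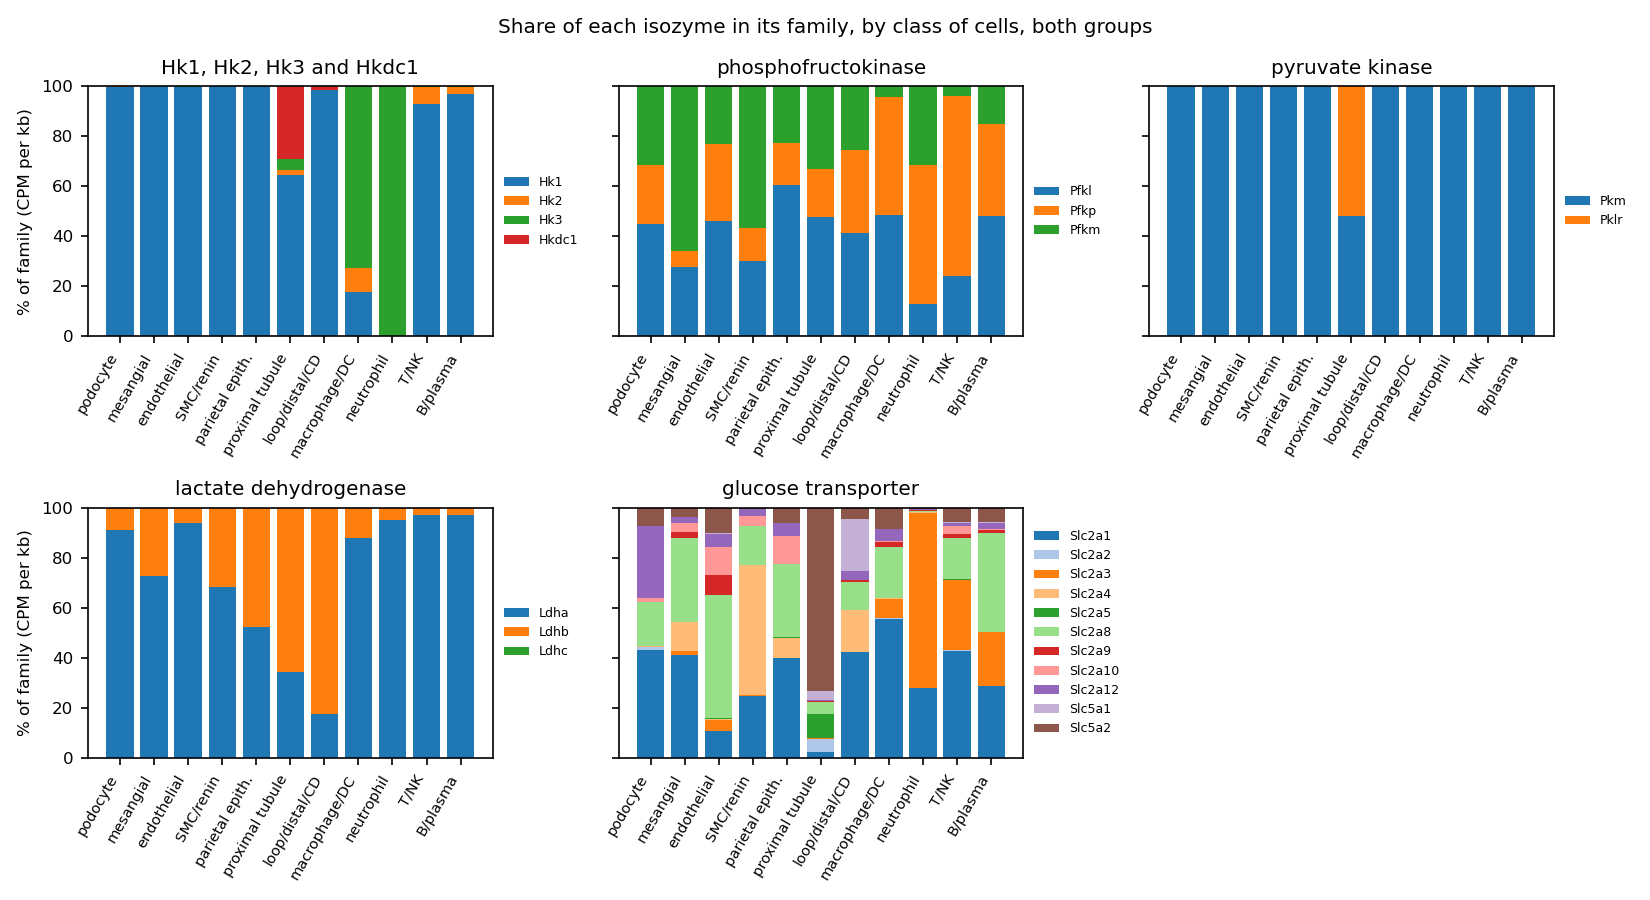
Stacked bars of the percent of the CPM per kb of each group of isozymes in each class, over both groups; each bar sums to 100%. The bars show Hk3 in myeloid classes, Pfkm in mesangial-like cells, and Pklr and Ldhb in proximal tubule-like cells, where Pkm and Ldha hold 48.1% and 34.5%. The Pkm share of proximal tubule-like cells differed between IgAN and Control, which the bars do not show.

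Aldoa, the aldolase of muscle and most other tissues, was found in at least 95.0% of cells of every class and ranged from 515 CPM in endothelial-like cells to 2027 CPM in loop and distal tubule-like cells. Podocyte-like cells had 793 CPM and mesangial-like cells 1122 CPM, above endothelial-like cells on 6 of 6 and 8 of 8 plates. Gapdh had 651 CPM in proximal tubule-like cells, 495 CPM in loop and distal tubule-like cells and 191 CPM in both podocyte-like and endothelial-like cells. Pgk1 followed the same order at the top, with 191 CPM in proximal tubule-like cells and 180 CPM in loop and distal tubule-like cells, against 44.3 CPM in endothelial-like cells. Podocyte-like cells had 65.3 CPM of Pgk1 and lay above endothelial-like cells on 6 of 6 plates, whereas mesangial-like cells, at 50.1 CPM, did so on 4 of 8.

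Pkm and Ldha carry the last steps, and proximal tubule-like cells had the lowest Pkm and the highest Ldha of the 11 classes. Pkm, the pyruvate kinase of most tissues outside liver, had 1192 CPM in neutrophil-like, 1152 CPM in loop and distal tubule-like and 643 CPM in macrophage or dendritic-like cells. Podocyte-like cells had 513 CPM, 2.13-fold the 240 CPM of endothelial-like cells and higher on 6 of 6 plates, while mesangial-like cells, at 261 CPM, were higher on 4 of 8. Proximal tubule-like cells had 62.1 CPM, below endothelial-like cells on 7 of 7 plates. Ldha, the lactate dehydrogenase subunit of muscle, had 1001 CPM in proximal tubule-like and 873 CPM in T or NK cell-like cells, and podocyte-like cells had the lowest level of the 11 classes. Their 272 CPM was 2.09-fold below the 569 CPM of endothelial-like cells, and lower on 6 of 6 plates. Mesangial-like cells had 355 CPM and were also lower on 8 of 8.

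Ldhb, the lactate dehydrogenase subunit of heart, gave the other side of this step. It had 2057 CPM in loop and distal tubule-like cells and 1405 CPM in proximal tubule-like cells, and left Ldha with 17.7% and 34.5% of the RNA per kb there. In the glomerular classes Ldha held 91.1% in podocyte-like cells, 72.6% in mesangial-like cells and 93.7% in endothelial-like cells. The mesangial-like share ran from 61.9% to 91.2% by plate and did not overlap the endothelial-like range of 91.5% to 95.6%. For pyruvate kinase, Pkm held essentially all of the RNA per kb outside proximal tubule-like cells. There Pklr, the liver and red cell form, held 51.9% over both groups. That share pools unlike groups, since Pkm in this class had 94.0 CPM in IgAN and 14.9 CPM in Control. The shares by group are given below.

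Across 63 sums of a class on a plate, from 9 classes, the members did not vary as a unit. The highest Pearson correlation of log2(CPM + 1) between a pair of them was 0.74, for Gapdh and Pgk1, followed by 0.57 for Hk1 and Pkm. The lowest was -0.35, for Gapdh and Pkm. These sums share plates and depth, and the values are descriptions. The gene most like Slc2a1 over the same sums was its antisense neighbour Gm12868 (r = 0.94), whose reads cannot be told apart from those of Slc2a1 without strand, and then Cd82, a tetraspanin of the cell surface (r = 0.55), Lrp10 (0.52), RP23-349J3.8 (0.47) and Zgpat (0.46). Hk1 was most like Ccdc101 (0.65), Isyna1, an enzyme of inositol synthesis (0.64), Crip2 (0.61), Ccar2 (0.60) and Gm28592 (0.60). Hk2 was most like Tnfsf13b, a cytokine that sustains B cells (0.80), Pde1b (0.79), Fam129a (0.78), the leukotriene receptor Ltb4r1 (0.77) and the chemokine Ccl9 (0.77). Ldha was most like Id2, an inhibitor of DNA-binding transcription factors (0.83), Ass1, an enzyme of arginine synthesis (0.72), the mitochondrial chaperone Hspd1 (0.66), Gm15459 (0.64) and Gm26825 (0.64).

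Single cells varied widely within a class. In podocyte-like cells the median cell had 0 CPM of Slc2a1 in both groups, and the 90th percentile of cells was 151 CPM in IgAN and 356 CPM in Control. The median cell with a read had 48.0 CPM in IgAN and 93.2 CPM in Control, and 1 cell gave 24.7% of the IgAN reads and 8.30% of the Control reads. Pkm was found in 92.5% of IgAN and 97.3% of Control podocyte-like cells, with a median cell at 480 CPM in IgAN and 384 CPM in Control. Within a class and group, the rank correlation of a member with the sum of the others was 0.43 at most, for Gapdh in IgAN mesangial-like cells, and several members correlated about as strongly with reads per cell. Such weak correlations in sparse counts are no finding.

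IgAN was compared with Control in 6 classes: the 3 main glomerular ones, the proximal tubule-like class and 2 of white blood cells. Loop and distal tubule-like cells, with 74 IgAN cells on 3 plates of at least 10 and 46 Control cells on 2, were not compared gene by gene. The 10 genes summed there to 4987 CPM in IgAN, from 3492 to 7338 CPM by plate, and to 6864 CPM in Control, from 6325 to 7324 CPM, which overlap. Genes count as measured in a class where 1 of the groups had 10 CPM or more and a read in 10% or more of its cells. The size rule asks for a log2 difference, IgAN minus Control with 1 CPM added, of at least 1 in either direction, and for plates of the groups that do not overlap, among plates with at least 10 cells of the class. Only Slc2a1 in podocyte-like cells met this rule among the 10 genes in the 6 classes.

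**Figure D4:**
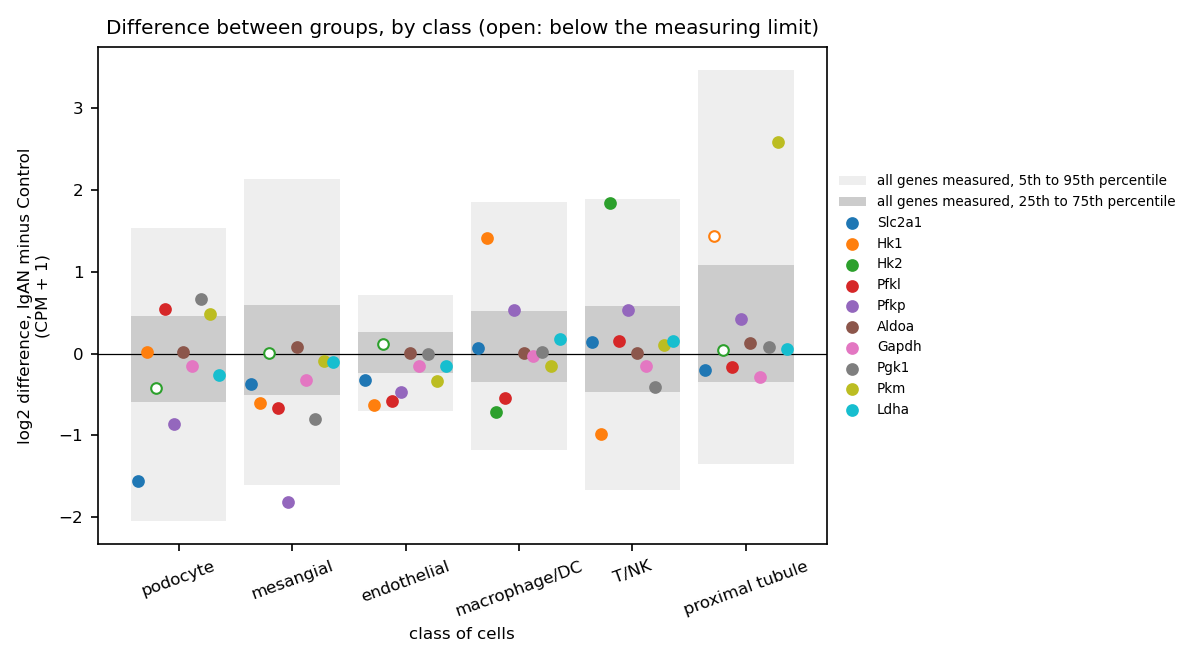
Log2 difference, IgAN minus Control, of the 10 genes in the 6 classes (points, open where not measured), over grey bands that span the 5th to 95th and 25th to 75th percentiles of all genes measured in the class. Slc2a1 in podocyte-like cells is at -1.55, Pfkp in mesangial-like cells at -1.82, Hk2 in T or NK cell-like cells at 1.84 and Pkm in proximal tubule-like cells at 2.58; of these 4, only the first has plates that do not overlap.

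Podocyte-like cells were 2.22% of IgAN cells (40 cells) and 10.9% of Control cells (146 cells). In them, Slc2a1 had 44.0 and 35.9 CPM on the IgAN plates 313 and 316, against 57.4, 130, 59.8 and 143 CPM on the Control plates 314, 317, 321 and 326. Both IgAN plates lay below every Control plate. Over all cells of the class the level was 33.2 CPM in IgAN (95% Poisson interval 29.9 to 36.8, counting error only) and 99.3 CPM in Control (96.4 to 102), a log2 difference of -1.55. The IgAN level includes cells on plates with fewer than 10 and lies below both IgAN plates. Slc2a1 was found in 32.5% of IgAN and 42.5% of Control cells, whose median depths were 236124 and 294133 reads, and at 50000 reads per cell in 25.0% of IgAN and 24.7% of Control cells. This was the only one of 9 measured members to meet the size rule, and 10.0% of the 9573 genes measured in podocyte-like cells met it, 6.18% as lower in IgAN. These were 592 genes lower and 368 higher in IgAN, but 398 lower and 619 higher with median-of-ratios scaling, under which Slc2a1 was at -1.26. Slc2a1 stood at percentile 8.22 of all differences in the class. The difference was negative under all 23 alternatives, but it shrank to -0.46 with the mean of per-cell CPM and to -0.74 when cells were gated on markers alone, and in both cases it no longer met the rule.

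Ldha had 171 and 131 CPM on the IgAN plates and 246, 375, 260 and 259 CPM on the Control plates. Both IgAN plates lay below all Control plates, as for 14.5% of the genes measured in the class. Its summed levels, which include 14 IgAN cells on plates with fewer than 10, were closer together, at 235 CPM in IgAN and 282 CPM in Control (log2 difference -0.26), and the difference was 0.03 with median-of-ratios scaling, 0.03 with cells gated on markers and 0.0088 without cells that carry markers of 2 classes. Pfkp had 20.3 CPM in IgAN and 37.6 CPM in Control (-0.86), with plates at 28.5 and 14.1 CPM in IgAN against 25.1 to 55.2 CPM in Control, which overlap. Pkm had 662 CPM in IgAN and 475 CPM in Control (0.48), Pgk1 had 93.3 CPM in IgAN and 58.3 CPM in Control (0.67), and Pfkl had 78.4 CPM in IgAN and 53.3 CPM in Control (0.55), all with overlapping plates. Aldoa, at 799 CPM in IgAN and 792 CPM in Control, and Hk1, at 59.6 CPM in IgAN and 58.7 CPM in Control, differed by 0.01 and 0.02, and Hk1 ran from -0.98 without plate 318 to 0.63 without cells that carry markers of 2 classes. Hk2 was at 0 in IgAN and 0.340 CPM in Control and was not measured. The median of all 10 members was -0.07, beside -0.06 for all genes measured, and 5 of 10 were below 0.

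**Figure D5:**
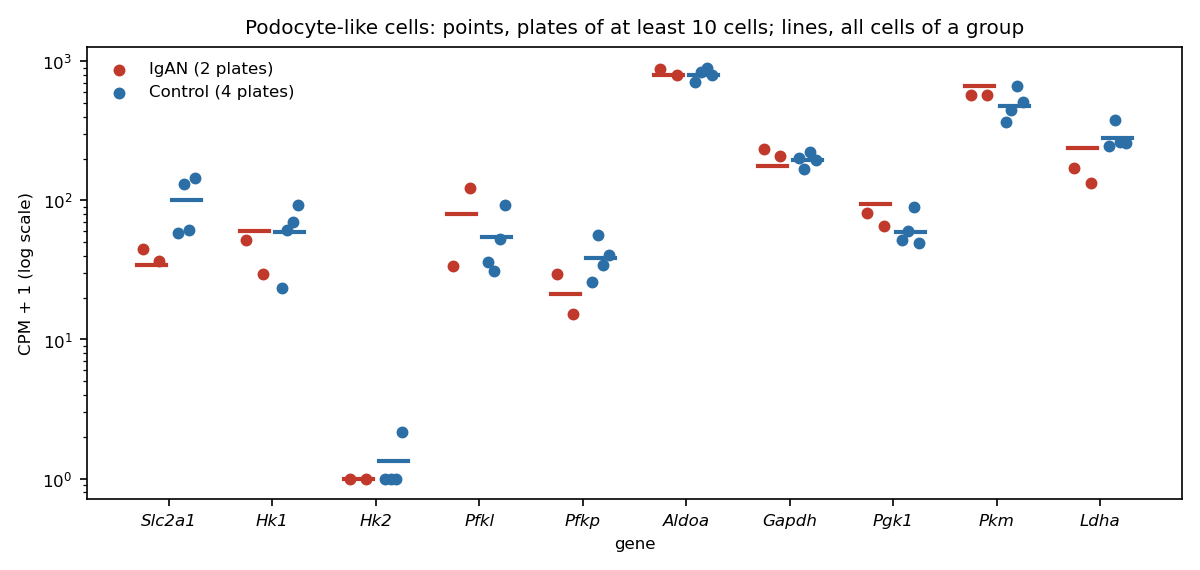
The 10 genes in podocyte-like cells by plate (points, CPM + 1 on a log axis), with a line for all cells of a group, and IgAN left of Control for each gene. Slc2a1 and Ldha are the members whose 2 IgAN plates lie below all 4 Control plates; the other members overlap.

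Other measures moved between the podocyte-like cells of the groups beside Slc2a1. Of 10 immediate early genes, which respond to stress and dissociation, 8 met the size rule as lower in IgAN, where 6.18% of all genes did. Nr4a1 alone met it as higher, where 3.84% of all genes did, and the list's median was -2.14. Egr1 had 113 CPM in IgAN and 755 CPM in Control, and Fosb 9.38 CPM in IgAN and 156 CPM in Control. Markers of fibroblasts summed to 595 CPM in IgAN, with 234 to 458 CPM on its plates, and 100 CPM in Control, with 4.89 to 267 CPM, and 5 of 6 of these markers were found in both groups. Markers of smooth muscle or renin cells summed to 285 CPM in IgAN, with 229 to 311 CPM on its plates, and 34.0 CPM in Control. Markers of parietal epithelial cells summed to 783 CPM in IgAN, with 924 to 932 CPM on its plates, and 582 CPM in Control, with 573 to 599 CPM, so that the plates did not overlap. Podocyte markers summed to 22618 CPM in IgAN and 24273 CPM in Control, with 8 of 8 found in both. The part of these measures in the Slc2a1 difference was not tested. Without the cells that carry markers of 2 classes the comparison rested on 31 IgAN and 120 Control cells, and Slc2a1 met the size rule at -1.58.

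In mesangial-like cells 0 of 9 measured members met the size rule, beside 3.37% of 10132 genes. Pfkp had the widest difference, with 10.8 CPM in IgAN and 40.8 CPM in Control (-1.82), at percentile 3.81 of all genes. Its plates ran from 6.77 to 16.6 CPM in IgAN, over 5 plates, and were 34.5, 71.5 and 14.5 CPM in Control. They overlapped by 1 Control plate, 326, and without it Pfkp met the rule at -2.14, as did Pgk1 at -1.06. Pgk1 had 40.0 CPM in IgAN and 70.1 CPM in Control (-0.80) with all plates, Pfkl 69.0 CPM in IgAN and 110 CPM in Control (-0.66), and Hk1 75.9 CPM in IgAN and 116 CPM in Control (-0.61). Slc2a1 had 87.3 CPM in IgAN and 114 CPM in Control (-0.38), but Control plate 326 alone stood at 256 CPM, and the other Control plates, at 33.5 and 45.7 CPM, lay within the IgAN range of 14.6 to 96.2 CPM. Aldoa (0.08), Pkm (-0.09) and Ldha (-0.10) were near 0. The median of the 10 members was -0.35, beside 0.02 for all genes, with 8 of 10 below 0. Endothelial markers summed to 2145 CPM in IgAN and 1352 CPM in Control mesangial-like cells, and podocyte markers to 750 CPM in IgAN and 336 CPM in Control, with 5165 CPM on IgAN plate 325, which had the lowest Slc2a1, Hk1, Pfkl, Aldoa, Gapdh, Pgk1 and Pkm of the IgAN plates. Their part in these differences was not tested.

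In endothelial-like cells, the largest class, differences were small and mostly downward: 0 of 9 measured members met the size rule, beside 1.51% of 9710 genes, and 8 of 10 members were below 0. The median was -0.24, beside 0.01 for all genes, and by plate the members' median ran from -0.41 to -0.11 in IgAN and from -0.14 to 0.07 in Control, which overlap. Hk1 had 58.2 CPM in IgAN and 90.4 CPM in Control (-0.63), at percentile 6.30, with plates from 36.5 to 80.5 CPM in IgAN and 67.4 to 122 CPM in Control. Pfkl had 58.2 CPM in IgAN and 87.9 CPM in Control (-0.59), Pfkp 44.6 CPM in IgAN and 62.3 CPM in Control (-0.47), and Pkm 218 CPM in IgAN and 276 CPM in Control (-0.34). Slc2a1 stood at 11.7 CPM in IgAN and 14.9 CPM in Control (-0.33), but at 0.64 with cells gated on markers. Aldoa, at 515 CPM in both groups, and Pgk1, at 44.2 CPM in IgAN and 44.5 CPM in Control, were level. Different clusters held most of the class in each group. IgAN had 339 and 302 cells in the clusters led by Btnl9 and by Gpihbp1, where Control had 68 and 5. IgAN had 25 cells in the cluster led by Fgf1, where Control had 339. With cells gated on markers alone the median was -0.08.

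In macrophage or dendritic-like cells 0 of 10 measured members met the size rule, beside 1.23% of 9737 genes. Hk1 had 29.5 CPM in IgAN and 10.5 CPM in Control (1.405), with plates from 0.588 to 59.5 CPM in IgAN and 2.18 to 21.5 CPM in Control. Hk2 had 12.8 CPM in IgAN, from 0 to 27.9 CPM by plate, and 21.7 CPM in Control, from 13.3 to 34.3 CPM (-0.72). Aldoa, Gapdh, Pgk1 and Slc2a1 differed by less than 0.07 in either direction, and the members' median was 0.01, beside 0.06 for all genes. Endothelial markers summed to 1245 CPM in IgAN macrophage or dendritic-like cells, with 256 to 2761 CPM by plate, and 358 CPM in Control, and their part was not tested.

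In T or NK cell-like cells 0 of 10 measured members met the size rule, beside 1.70% of 9463 genes. Hk2 had 14.0 CPM in IgAN and 3.19 CPM in Control (1.84), but IgAN plate 313 stood at 58.7 CPM, the other IgAN plates at 0 to 7.14 CPM, and the Control plates at 0 to 10.3 CPM. Hk1 had 55.3 CPM in IgAN and 110 CPM in Control (-0.98), with plates from 0.656 to 94.3 CPM in IgAN and 44.1 to 244 CPM in Control. Pfkp had 412 CPM in IgAN and 285 CPM in Control (0.53), and Ldha 927 CPM in IgAN and 830 CPM in Control (0.16). The class joined a cluster led by Cd3e, with 32 IgAN and 83 Control cells, and 1 led by Ncr1, with 60 IgAN and 45 Control cells. Pfkp had 265 CPM in IgAN and 298 CPM in Control in the Cd3e cluster, and 509 CPM in IgAN and 262 CPM in Control in the Ncr1 cluster. Slc2a1 had 76.6 CPM in IgAN and 121 CPM in Control in the Cd3e cluster, and 149 CPM in IgAN and 85.7 CPM in Control in the Ncr1 cluster. Neither difference between the clusters was tested. Endothelial markers summed to 1016 CPM in IgAN T or NK cell-like cells, with 309 to 2592 CPM by plate, and 447 CPM in Control, with 349 to 662 CPM, and their part in these differences was not tested.

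In proximal tubule-like cells 0 of 8 measured members met the size rule, beside 7.29% of 9911 genes. Pkm had 116, 30.6, 26.8 and 122 CPM on the IgAN plates 315, 316, 318 and 325, against 4.62, 32.3 and 8.08 CPM on the Control plates 314, 317 and 321. Control plate 317 lay within the IgAN range. Summed, the level was 94.0 CPM in IgAN and 14.9 CPM in Control (2.58), at percentile 90.1 of all genes, and 1 cell gave 12.8% of the IgAN reads and 47.7% of the Control reads. Pkm held 59.2% of the pyruvate kinase RNA per kb in IgAN, from 16.4% to 74.3% by plate, and 17.4% in Control, from 4.50% to 23.8%. Endothelial markers summed to 2184 CPM in IgAN proximal tubule-like cells, with 164 to 3345 CPM by plate and 8 of 8 found, and to 162 CPM in Control, with 116 to 232 CPM. Without cells that carry markers of 2 classes the Pkm difference was 1.497, and with cells gated on markers alone 0.22. The part of endothelial RNA in this difference was not tested otherwise. Gapdh had 599 CPM in IgAN and 729 CPM in Control (-0.28), Ldha 1017 CPM in IgAN and 979 CPM in Control (0.05), and Slc2a1 36.4 CPM in IgAN and 42.0 CPM in Control (-0.20), while IgAN plate 318 stood at 272 CPM.

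A further 16 genes of the glycolytic pathway, such as Gpi1, Tpi1, Pgam1 and Eno1, gave 0 genes past the size rule in each of the 6 classes, of 7 to 9 measured in each. In podocyte-like cells 1 of 8 measured was above 0 and their median was -0.34. Gpi1, which isomerises glucose 6-phosphate, had 147 CPM in IgAN and 204 CPM in Control there. Tpi1, triose phosphate isomerase, had 231 CPM in IgAN and 268 CPM in Control (-0.21). Its IgAN plates lay below the Control plates, as for 14.5% of the genes measured in podocyte-like cells. In endothelial-like cells Gpi1 had 339 CPM in IgAN and 384 CPM in Control and Pgam1, phosphoglycerate mutase, 155 CPM in IgAN and 177 CPM in Control. In mesangial-like cells the list's median was -0.03, and 4 of 8 measured were above 0.

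The pathways that branch from glycolysis gave few differences that met the rule. In podocyte-like cells G6pdx, the first enzyme of the pentose phosphate pathway, had 23.9 CPM in IgAN and 117 CPM in Control (-2.24), the only one of 6 measured genes of that list to meet it, where 6.18% of all genes in the class did as lower. Bhlhe40, a target of hypoxia-inducible factors and a clock regulator, had 14.7 CPM in IgAN and 41.6 CPM in Control (-1.44). It also met the rule as lower, as 6.18% of all genes in the class did. Of the 9 measured targets of these factors other than the members, Bhlhe40 alone met the rule and 7 were above 0. Among all genes measured in the class, 53.1% were below 0. Adm, a vasodilator peptide, was 1 of the 7, at 1086 CPM in IgAN and 574 CPM in Control (0.92). Vegfa, the endothelial growth factor, was another, at 398 CPM in IgAN and 294 CPM in Control (0.43). The IgAN plates of both lay above all Control plates, as for 9.68% of the genes measured in the class, with differences under 1. Txnip, which restrains glucose uptake, had 45.2 CPM in IgAN and 155 CPM in Control (-1.75) in podocyte-like cells with overlapping plates, and 1071 CPM in IgAN and 1604 CPM in Control (-0.58) in endothelial-like cells with IgAN plates below. Tkt, transketolase, had 126 CPM in IgAN and 178 CPM in Control (-0.49) in endothelial-like cells and 332 CPM in IgAN and 633 CPM in Control (-0.93) in macrophage or dendritic-like cells, in each case with IgAN plates below Control plates, as for 2.26% of the genes measured in endothelial-like and 0.852% in macrophage or dendritic-like cells, but a difference under 1.

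All 7 genes of glucose synthesis were measured in proximal tubule-like cells, 0 met the size rule, and all 7 were below 0, with a median of -0.65. Pck1, the rate-limiting enzyme of glucose synthesis, had 1184 CPM in IgAN and 3176 CPM in Control (-1.42) with overlapping plates, and Fbp1, fructose bisphosphatase, 1272 CPM in IgAN and 1997 CPM in Control (-0.65) with IgAN plates below, as for 3.57% of genes in this class. The endothelial marker values above move with these too, proximal tubule markers summed to 9099 CPM in IgAN and 15054 CPM in Control, and their part was not tested. Egln2, a prolyl hydroxylase that marks hypoxia-inducible factors for decay, had 58.4 CPM in IgAN and 149 CPM in Control (-1.34), the only one of 6 measured regulators to meet the size rule, which 2.06% of all genes met as lower. All 10 immediate early genes were above 0 in this class, with Egr1 at 664 CPM in IgAN and 41.1 CPM in Control meeting the rule, as 5.24% of all genes did as higher, opposite in sign to podocyte-like cells. That difference between the classes was not tested. Of 12 genes of the cell cycle, 0 met the rule in any of the 6 classes. In macrophage or dendritic-like cells 6 of 7 measured were above 0, with a median of 2.33, and in T or NK cell-like cells 0 of 11 were, with a median of -0.94.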

How the data were processed

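Single cells were read by Smart-seq2. The authors deposited counts, whole numbers of reads per gene and cell with no scaling. According to the submitters' processing notes, TopHat2 2.1.1, featureCounts, Subread 1.4.6-p5 and SAMtools 0.1.18 were used with GRCm38 (mm10). The sources used here do not give the annotation, the strand setting or the handling of duplicates, and no gene exceeded 3974 reads in a cell. Every cell was kept, and no doublet caller was run because cells were sorted singly into wells. Cells with markers of 2 classes were left out as an alternative.

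For clustering, each cell was scaled to 100000 reads and log transformed. The 2000 most variable genes gave 30 principal components, from which Leiden clustering (15 neighbours, resolution 1) made 25 clusters. Each cluster was classed by its strongest markers, with at least 3 found in 25% of its cells. Reads were then summed per class, group and plate as CPM. With 1 sample a group there was no test. The scripts behind the size rule were checked on simulated data shaped on the endothelial-like plates, with changes larger than the rule's limit. That check covers the code. It does not give the error rate of the rule in classes with fewer cells and plates, such as podocyte-like cells. The members, lists and rules were chosen with earlier results of these data known. Further items of these families and lists are not reported here. The list genes named are taken from those that met the size rule and from the 2 most abundant of each list. Promoter sequences are from RefSeq (GRCm38.p6), and all 10 members matched. Python 3.11.15, numpy 2.4.6, scipy 1.17.1, pandas 2.3.3, scanpy 1.11.5 and matplotlib 3.10.9 were used.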

Additional observations from a re-analysis of the deposited data

Results flagged for a closer look

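Of 84 sets of 4 to 6 plates, each of 1 gene in 1 class and group, 9 held a plate whose gap to its nearest neighbour was large for the set's range by Dixon's criterion, 10.7%, where chance gives about 1 in 20. In T or NK cell-like cells Hk2 stood at 58.7 CPM on IgAN plate 313, with the next IgAN plate at 7.14 CPM, and at 10.3 CPM on Control plate 321, with the next Control plate at 0.790 CPM. Slc2a1 stood at 274 CPM on IgAN plate 318 in T or NK cell-like cells, with the next at 104 CPM. The same plate was high in proximal tubule-like cells, at 272 CPM of Slc2a1, with the next IgAN plate at 38.3 CPM, and at 257 CPM of Pfkl, with the next at 87.7 CPM. It held 15 proximal tubule-like cells. In proximal tubule-like cells Ldha was low on IgAN plate 325, at 745 CPM, with the next at 1076 CPM. In macrophage or dendritic-like cells Gapdh was low on IgAN plate 322, at 143 CPM, with the next at 292 CPM, and Pkm was high on Control plate 317, at 830 CPM, with the next at 633 CPM. In podocyte-like cells Ldha was high on Control plate 317, at 375 CPM, with the next at 260 CPM, and without that plate both IgAN plates would still lie below the other Control plates.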

How the results depend on the processing

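No paired analysis was possible because the numbers of the cells only name them and each plate holds 1 group. Of 243 values of the main results under the alternatives, 226 kept their call or moved by less than the spread between plates. Many of these values are counts of members that were 0 in the main setting and had little room to change. In mesangial-like cells the spread between IgAN plates, 0.60, was wider than the median of -0.35 itself. The median in podocyte-like cells moved by more than the spread in 8 of 23 alternatives. The median of the 10 members in podocyte-like cells, -0.07, was 0.22 with median-of-ratios scaling, -0.27 with the mean of per-cell CPM, -0.16 with equal weight for plates and 0.018 with a filter at 50 CPM, and ran from -0.24 to 0.041 when 1 plate was left out. Median-of-ratios scaling also moved the median of all genes in this class from -0.06 to 0.23 and the genes meeting the size rule from 368 higher and 592 lower to 619 higher and 398 lower, so the members stood at -0.01 relative to all genes in the main scaling and -0.01 in the other. In proximal tubule-like cells it moved the median of all genes from 0.25 to 0.10 and that of the members from 0.07 to -0.04. The count of members meeting the size rule in podocyte-like cells, 1, was 0 with the mean of per-cell CPM and 0 with cells gated on markers, and 1 to 2 when 1 plate was left out, with Pfkp added at -1.19 without plate 313 and -1.06 without plate 314. In mesangial-like cells the count, 0, ran from 0 to 2, with Pfkp at -1.97 without plate 315. In proximal tubule-like cells it was 1 with the mean of per-cell CPM (Pkm at 2.68) and 0 to 1 when 1 plate was left out, with Pkm at 3.56 without plate 317. Fewer plates must then lie apart, so the rule is easier to meet. The endothelial median, -0.24, was -0.076 with the marker gate. The macrophage or dendritic median, 0.01, was 0.21 without plate 317. For the other changes the cause was not tested. Medians and single differences close to 0 changed sign under some alternatives, and so did some larger differences. Slc2a1 in mesangial-like cells, at -0.38, reached 0.63 when 1 plate was left out. Pfkp in proximal tubule-like cells, at 0.42, reached -0.47 in the same way. Slc2a1 in endothelial-like cells, at -0.33, was 0.64 with cells gated on markers. The Slc2a1 difference that met the size rule in podocyte-like cells did not change sign. Alternatives chosen after seeing the data were leaving out the 41 cells and adding the Gapdh pseudogenes, which gave Gapdh -0.07 in podocyte-like, -0.34 in mesangial-like and -0.15 in endothelial-like cells. Outside macrophage or dendritic-like and T or NK cell-like cells a class holds few reads of Hk2, which limits its comparison there. Median depth was 250949 reads in macrophage or dendritic-like, 206958 in T or NK cell-like and 243643 in endothelial-like cells.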

Other observations

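Some oxygen-sensing and fuel-use genes around glycolysis differed between the glomerular classes, and podocyte-like cells stood apart in several of them. Epas1, an oxygen-regulated transcription factor, had 1323 CPM in mesangial-like and 1011 CPM in endothelial-like cells and 53.4 CPM in podocyte-like cells, whereas Hif1a lay between 149 and 249 CPM in these classes. Podocyte-like cells had 676 CPM of Adm, 315 CPM of Vegfa and 644 CPM of Pdk2, a kinase that holds back pyruvate entry to mitochondria, against 38.2, 18.5 and 55.9 CPM in endothelial-like cells. Endothelial-like cells had 1279 CPM of Txnip. Mesangial-like cells had 553 CPM of it in IgAN and 710 CPM in Control, and podocyte-like cells 45.2 CPM in IgAN and 155 CPM in Control.

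Some carriers of lactate and regulators of phosphofructokinase were high in some classes and low in endothelial-like cells. Slc16a3, a lactate exporter, had 209 CPM in macrophage or dendritic-like and 1054 CPM in neutrophil-like cells and 4.23 CPM in endothelial-like cells. Slc16a1, another lactate carrier, had 128 CPM in T or NK cell-like cells, 68.5 CPM in proximal tubule-like cells, 62.2 CPM in B or plasma cell-like cells and 1.52 CPM in endothelial-like cells, and Emb, a partner of these carriers, 502 CPM in macrophage or dendritic-like cells and 1.91 CPM in endothelial-like cells. Pfkfb4, which makes an activator of phosphofructokinase, had 137 CPM in macrophage or dendritic-like and 307 CPM in neutrophil-like cells and 1.51 CPM in endothelial-like cells. The neutrophil-like values rest on 20 cells, of which 11 carried markers of another class, and no plate held 10 of them. Eno3, the muscle enolase, had 347 CPM in macrophage or dendritic-like cells and 2.77 CPM in endothelial-like cells, and it was among the leading genes of the cluster led by Treml4. Loop and distal tubule-like cells had 326 CPM of Pgam2, the muscle phosphoglycerate mutase, and 2.73 CPM in proximal tubule-like cells. These genes were named after their values were seen.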
